A study of Mus musculus with 25 samples.

Results

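Livers of 5 mice given caffeine and 4 mice given sorafenib, all after the same liver carcinogen, were compared directly by RNA sequencing. These 9 libraries of the 25 in the series were chosen by treatment label alone, and no carcinogen-only, untreated or combination-treated mouse entered. Per the labels, all were male C3H/HeJ mice, a strain prone to liver cancer, obtained at 5 weeks of age. Every mouse had received the alkylating carcinogen diethylnitrosamine (DEN, 25 mg/kg intraperitoneally, 2 injections a week for 3 weeks and then 1 week of rest, in 5 cycles over 4 months) and had then rested for 1 month. The caffeine arm (DEN_CAF) was then dosed by gavage at 50 mg/kg 3 times a week, in tap water, and the sorafenib arm (DEN_SOR) at 30 mg/kg 2 times a week, in corn oil with 2% DMSO, both for 3 weeks between 8 and 9 in the morning. Caffeine was given on Mondays, Wednesdays and Fridays and sorafenib on Tuesdays and Thursdays. Drug, vehicle, dosing days and number of doses therefore differ together between the arms and cannot be told apart. The labels allot 6 animals to each group, do not say whether the tissue was tumour or surrounding liver, and give no hour or day of collection.

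Caffeine is a methylxanthine that blocks adenosine receptors and, at higher concentrations, the phosphodiesterases that break down cyclic AMP. The liver clears it mainly through Cyp1a2. Sorafenib is a kinase inhibitor used in liver cancer that blocks kinases inside the cell and receptor tyrosine kinases on the surface, among them the VEGF receptors of blood vessels. It is handled by CYP3A enzymes and by UDP-glucuronosyltransferases. The liver also runs a circadian clock, in which CLOCK and BMAL1 switch on the Per and Cry genes, whose proteins repress their own transcription, and the clock drives daily rhythms of lipid, glucose and bile acid enzymes.

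Assigned reads ran from 17070231 to 19859763 in the caffeine arm and from 14750278 to 20107029 in the sorafenib arm. Values below are FPKM (fragments per gene length and sequencing depth), scaled over the 9 libraries together. Hepatocyte markers were high in every library (Alb between 17900 and 30200 FPKM), as the tissue label says, and Xist (at most 12 reads) and the Y-linked Ddx3y (914 to 1502 reads) matched the label male in all 9. Markers of pancreas and fat were at or near 0: Prss2 had no reads in 6 of 9 libraries and Adipoq in 5. Genes of the mitochondrial chromosome took 7.03%, 9.81%, 23.6%, 23.1% and 7.82% of reads in caffeine mice 1 to 5 and 7.43%, 7.35%, 13.6% and 34.8% in sorafenib mice 1 to 4. The libraries numbered 3 and 4 were thus high in both arms, and the difference between arms was smaller than the spread between mice (14.3 ± 8.34% against 15.8 ± 13%, SD, n = 5 and 4; difference -1.54 percentage points, exact permutation test, two-sided, p = 0.841). Leaving out 1 library moved that difference between -4.36 and 4.80. Along the first principal component (35.34% of the variance) caffeine 3 and 4 and sorafenib 4 scored 30.24, 26.96 and 38.91, sorafenib 3 scored 5.22, and the other 5 libraries were negative. The second component (20.33%) was led by sorafenib 1 at 44.59. For some results the value without some of these libraries is given, and results without such a value may turn on them too.

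No gene differed between caffeine and sorafenib past the adjusted threshold. Of 11492 genes tested, 0 were called at an adjusted p under 0.05 (limma, Benjamini-Hochberg; 0% called), and the smallest adjusted p was 0.722. edgeR on the reads also called 0, and DESeq2 called 9. At an unadjusted p under 0.05 there were 477 genes (4.15%), 246 higher with caffeine (2.14%) and 231 lower (2.01%). The 5 caffeine mice lay wholly above the 4 sorafenib mice in 91 genes (0.792%) and wholly below in 71 (0.618%). edgeR gave 470 genes at that unadjusted level (211 higher, 259 lower) and DESeq2 565 (254 higher, 311 lower). When mice of the same number were compared within pairs (replicate block, numbers 1 to 4, which leaves out caffeine 5) the count was 891, again with 0 called. Leaving out caffeine 5 without pairing gave 494. Fold changes and list medians under the block equal those without caffeine 5, and only the spread is measured differently. Precision was moderate: the median 95% interval reached 0.413 to either side on the scale of log2(FPKM + 1). For 9858 genes (85.78%) the interval lay wholly within 1 log2 unit of 0 in both directions on that scale. The share of unadjusted differences that were higher with caffeine was 51.6%. It was 65.6% with library totals (292 higher, 153 lower), 65.3% with values as deposited, 61.4% in libraries 3 and 4 alone and 59.0% with TMM, but 44.9% by edgeR and 45% by DESeq2, so the balance between directions depended on the method. Over all tested genes 51.4% had higher values with caffeine. The median log2 fold change over all tested genes was 0.0057, and 0.0465 under library totals. Every gene described below is therefore a measured difference that limma did not call, given as the log2 fold change of FPKM + 1, caffeine minus sorafenib, with its standard error or 95% interval (limma). That scale understates differences of low genes. For them an interval within 1 log2 unit of 0 does not bound the change of FPKM itself to 1 log2 unit. Counts of list members at an unadjusted p under 0.05 are small and moved easily. Of 51 lists with a tested member, the count in a direction moved by more than 1.5 times, or to or from 0, in 31 under the replicate block and in 43 when 1 mouse was left out. Adjusted p-values of the genes named by rule ran from 0.764 to 0.9995 (limma).

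Among protein-coding genes whose groups did not overlap, the 8 with the smallest p-values on the caffeine-high side included a bile acid enzyme, a transcription factor, a succinate receptor, a tight junction protein and a DNA methyltransferase. Hsd3b7, an enzyme of the bile acid synthesis path (ENSMUSG00000042289, GRCm39 chr7:127399776-127402974), was at 4.67, 7.36, 4.89, 5.24 and 4.97 FPKM in caffeine mice 1 to 5 and at 2.70, 2.74, 3.53 and 1.86 in sorafenib mice 1 to 4. Its log2 fold change was 0.80 (SE 0.17, 95% interval 0.43 to 1.17, adjusted p = 0.764). Even the highest sorafenib mouse lay below the lowest caffeine mouse. Tbx3, a transcription factor that Wnt signalling supports in hepatocytes around the central vein (ENSMUSG00000018604, chr5:119808734-119822789), was at 1.83, 2.59, 3.91, 5.53 and 4.19 against 1.28, 1.24, 0.599 and 1.5 FPKM. The log2 fold change was 1.06 (SE 0.24, adjusted p = 0.897), and the gap between the arms ran from 1.5 to 1.83. Sucnr1, the receptor for extracellular succinate (ENSMUSG00000027762), was at 5.77, 11.1, 5.98, 10.6 and 17.7 against 2.76, 4.33, 4.19 and 4.79 FPKM. Caffeine mice spread widely there, and the log2 fold change was 1.08 (SE 0.29, adjusted p = 0.989). Cldn1, a tight junction protein of bile canaliculi (ENSMUSG00000022512), was at 22.4, 30.1, 16.0, 18.1 and 30.6 against 13.8, 12.5, 15.1 and 10.3 FPKM (log2 0.78, SE 0.21, adjusted p = 0.989). The DNA methyltransferase Dnmt3b was at 1.94 ± 0.245 against 0.920 ± 0.485 FPKM (log2 0.65), the lowest of these 8 in reads with 26 in 1 library. Spata13, Asap2 and Plekha1 had log2 fold changes of 0.66, 0.68 and 0.46. All 8 kept their direction whichever mouse was left out, but choosing genes whose arms do not overlap all but fixes that in advance.

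On the caffeine-low side the 8 leading genes included a secreted growth factor, a pyrimidine enzyme, a kinase and a clock gene. Nrg4, an EGF family growth factor (ENSMUSG00000032311, chr9:55127506-55234128), was at 1.14, 1.36, 1.56, 1.39 and 2.07 FPKM in the caffeine mice and 4.5, 5.29, 2.55 and 3.02 in the sorafenib mice. It had the smallest p in this direction (log2 -0.92, SE 0.19, adjusted p = 0.764), with sorafenib 1 and 2 highest. Upp2, a uridine phosphorylase of liver (ENSMUSG00000026839, chr2:58457310-58682983), was at 33.3, 23.3, 28.0, 33.0 and 14.6 against 52.6, 152, 73.1 and 61.3 FPKM. Its log2 value of -1.57 (SE 0.33, adjusted p = 0.764) was the largest difference of the 16 leading genes, and sorafenib 2 alone was above 100. Sorbs3, the adhesion protein vinexin (ENSMUSG00000022091), was at 21.7, 11.4, 13.9, 17.5 and 13.3 against 47.8, 25.5, 48.9 and 26.9 FPKM (log2 -1.18, SE 0.25, adjusted p = 0.775). Mknk2, a kinase that acts downstream of MAP kinases on the translation factor eIF4E (ENSMUSG00000020190), was at 31.6, 23.5, 22.2, 22.5 and 16.8 against 45.5, 48.8, 51.7 and 33.3 FPKM. Its log2 fold change was -0.92 (SE 0.20, adjusted p = 0.764), and sorafenib 4 was within 2 FPKM of caffeine 1. Ier3, an immediate early gene, was at 2.15, 2.34, 2.42, 3.73 and 2.04 against 6.61, 4.49, 5.49 and 4.18 FPKM (log2 -0.81, SE 0.17, adjusted p = 0.764). Foxo3, a transcription factor that insulin signalling shuts out of the nucleus, was at 3.40 ± 0.304 against 6.13 ± 1.91 FPKM (log2 -0.66, adjusted p = 0.989), and Crybg1 had -0.41. The eighth gene of this direction, Per2, is described with the clock.

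**Figure D1:**
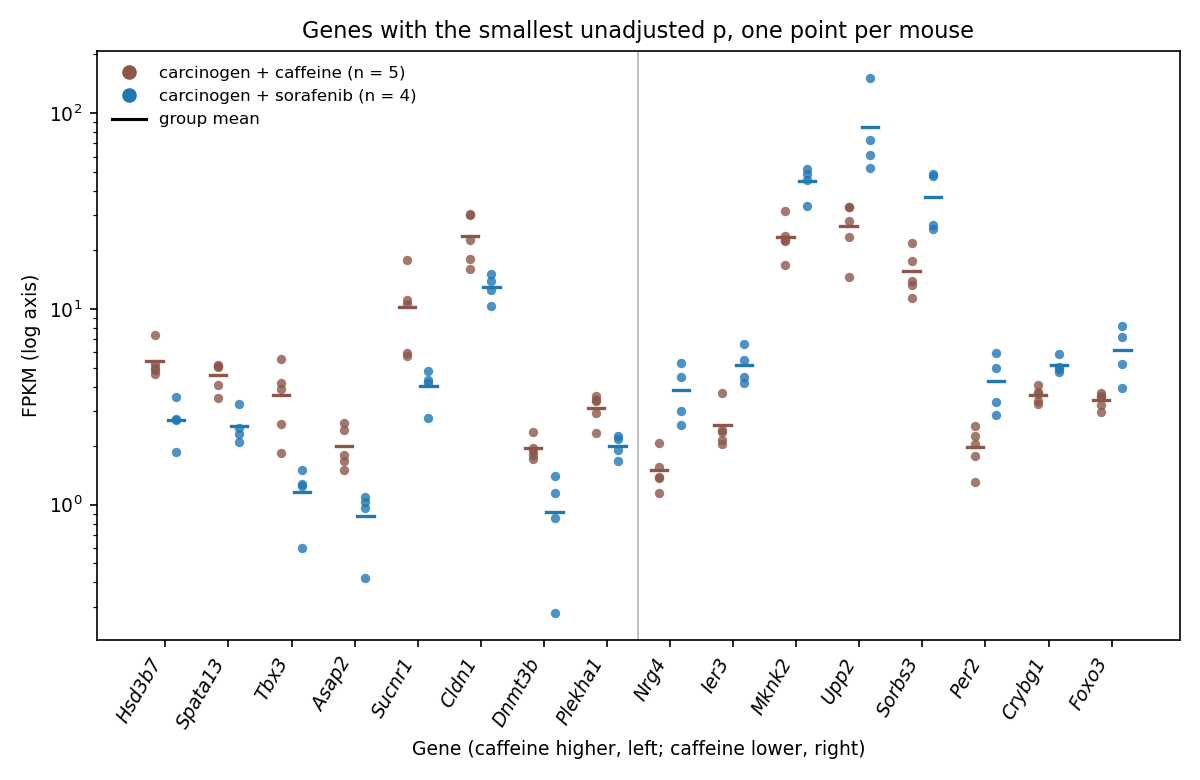
FPKM on a log axis for the 16 genes with the smallest unadjusted p among protein-coding genes whose groups do not overlap, with 1 point per mouse and a bar at each group mean (brown, caffeine, n = 5; blue, sorafenib, n = 4). The groups are separate in each gene because the genes were chosen that way, several by a narrow gap (Cldn1 by 15.1 against 16.0 FPKM), and limma called none of the 16.

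The 9 genes that DESeq2 called were examined one by one. DESeq2 put Tbx3 higher with caffeine (log2 1.64, adjusted p = 0.0177) and Nrg4 (-1.36, adjusted p = 0.00487), Upp2 (-1.67, adjusted p = 0.00542), Sorbs3 (-1.28, adjusted p = 0.0177) and Mknk2 (-0.95, adjusted p = 0.0181) lower, all among the leading genes above. It also called Akr1c18, a steroid dehydrogenase that inactivates progesterone, at 1.56, 0.327, 0.185, 0.680 and 0.218 FPKM with caffeine and 8.24, 3.48, 1.52 and 7.91 with sorafenib (DESeq2 log2 -3.17, adjusted p = 0.00722). Here caffeine 1 and sorafenib 3 overlapped. Gpcpd1, a glycerophosphocholine phosphodiesterase, was at 4.83 to 8.49 FPKM in the caffeine mice and at 24.2, 27.2, 5.00 and 24.6 in the sorafenib mice (DESeq2 adjusted p = 0.0373), so sorafenib 3 sat within the caffeine range. Gapdh, a glycolytic enzyme, was at 2.44 to 4.06 FPKM with caffeine and 3.81, 5.30, 63.1 and 70.0 with sorafenib. Only the sorafenib libraries numbered 3 and 4 were high. This gene has near-identical pseudogene copies, so its value is uncertain, and the part of such copies in it was not tested. The pseudogene Gm7086 was at 298 FPKM in sorafenib 1 and at 0.146 to 22.7 in the other sorafenib mice. limma called none of the 9.

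The clock list held 5 genes apart at the unadjusted level, 4 of them lower with caffeine. Of 20 clock genes, 16 were tested, 12 had lower values with caffeine and 4 higher, and the list median was -0.27 log2 units against 0.0057 over all genes tested. At an unadjusted p under 0.05 4 of the 16 were lower (Per1, Per2, Per3 and Tef) and 1 higher (Bmal1), against 2.01% and 2.14% of all genes, and 0 were called. The 4 lower genes became 2 without sorafenib 1 and under the replicate block, 7 without sorafenib 3, 1 among libraries numbered 3 and 4 and 9 among the others. The 1 higher became 0 without caffeine 2. Per1, a repressor that also responds quickly to hormones and cyclic AMP (ENSMUSG00000020893), was at 4.78, 1.22, 1.05, 1.07 and 1.04 FPKM in the caffeine mice and at 13, 5.09, 5.50 and 3.67 in the sorafenib mice. The log2 fold change was -1.48 (SE 0.39, 95% interval -2.33 to -0.62, adjusted p = 0.989). Caffeine 1 was the exception, above sorafenib 4, while the other caffeine mice lay close together between 1.04 and 1.22. Per2 (ENSMUSG00000055866, chr1:91343704-91387046), the partner repressor, was at 2.53, 2.03, 1.76, 2.25 and 1.31 against 5.92, 4.97, 3.33 and 2.88 FPKM, with no overlap (log2 -0.80, SE 0.20, adjusted p = 0.938). Per3 was at 0.263, 0.258, 0.998, 1.01 and 0.755 against 5.96, 3.82, 0.434 and 3.17 FPKM (log2 -1.22, interval -2.10 to -0.33). Tef, a clock output factor, was at 4.64, 3.89, 7.70, 8.19 and 4.45 against 17.0, 15.3, 3.96 and 15.9 FPKM (log2 -0.94, interval -1.79 to -0.08). Both had sorafenib 1, 2 and 4 high and sorafenib 3 at the level of the caffeine mice.

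Sorafenib 3 stood apart from its group in several clock genes, though not in Per1 or Per2. Bmal1, the activator, was at 3.66, 4.60, 2.48, 3.04 and 3.94 FPKM in the caffeine mice and at 1.03, 0.559, 4.49 and 1.25 in the sorafenib mice (log2 0.84, SE 0.32, interval 0.12 to 1.56). Dbp, a clock output gene with a wide daily swing in liver, was at 2.2, 2.69, 33.6, 35.7 and 7.5 against 54.5, 53.3, 1.83 and 101 FPKM (log2 -1.54, SE 1.12, interval -4.04 to 0.96). Sorafenib 3 had the highest Bmal1 and the lowest Dbp of its group. The caffeine mice were split too, with caffeine 3 and 4 above 33 FPKM of Dbp and the other 3 at 7.5 or less. Nr1d1, a repressor of Bmal1, was at 5.19 FPKM in sorafenib 3 against 24.2, 32.0 and 46.8 in the other sorafenib mice, and its arms overlapped (log2 0.16, interval -1.04 to 1.36). Clock (log2 0.28, interval -0.05 to 0.62), Cry1 (-0.11, interval -0.85 to 0.64) and Nr1d2 (-0.30, interval -0.93 to 0.33) also overlapped. Among libraries numbered 3 and 4 alone the log2 fold changes of Dbp and Nr1d1 were 1.08 and 1.04. Among the other libraries they were -3.57 and -0.53. The clock list median was -0.45 without sorafenib 3 and -0.14 without sorafenib 1, and it was -0.07 among libraries numbered 3 and 4 and -0.60 among the others. Under the replicate block 2 clock genes were lower at an unadjusted p under 0.05 (Per1 and Per2) and 0 higher. Time of day at collection is not in the labels, and its part in these values was not tested.

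**Figure D2:**
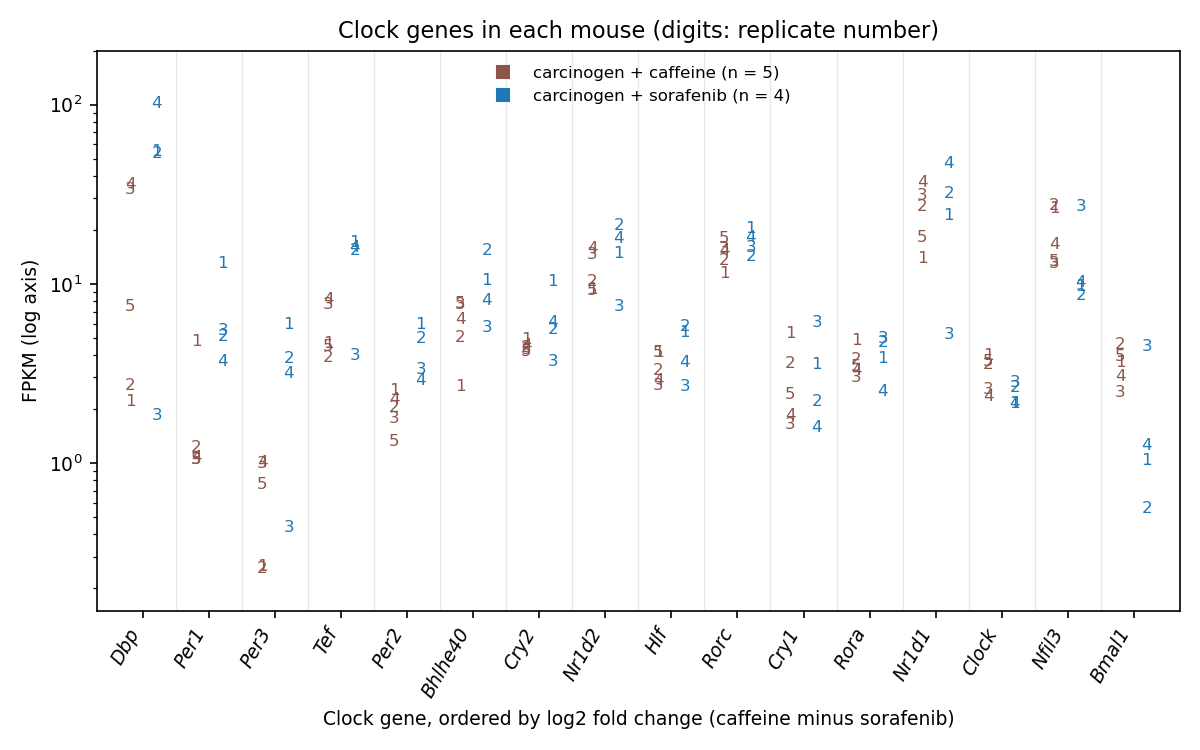
FPKM on a log axis for the 16 tested clock genes, ordered from the lowest to the highest log2 fold change (caffeine minus sorafenib), with each mouse drawn as its replicate number (brown, caffeine, n = 5; blue, sorafenib, n = 4). Sorafenib 3 sits low in Dbp (1.83 FPKM), Per3, Tef and Nr1d1 and high in Bmal1 (4.49 FPKM), apart from sorafenib 1, 2 and 4.

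Sequence before 3 of these genes is shown because the clock acts on its targets in part through 2 short elements. They are the E-box bound by CLOCK and BMAL1 and the D-box bound by Dbp, Tef and Hlf. The stretches are the 250 bases before a start annotated in RefSeq (build GRCm38.p6, an older build than the one the reads were aligned to), 5′ to 3′ on the gene's strand, with matches to CACGTG (E-box) or TTATGTAA (D-box) on either strand in capitals. Per1 is chr11:69098699-69098948 (plus strand), Per3 is chr4:151044666-151044915 (minus strand) and Tef is chr15:81802423-81802672 (plus strand).
Per1: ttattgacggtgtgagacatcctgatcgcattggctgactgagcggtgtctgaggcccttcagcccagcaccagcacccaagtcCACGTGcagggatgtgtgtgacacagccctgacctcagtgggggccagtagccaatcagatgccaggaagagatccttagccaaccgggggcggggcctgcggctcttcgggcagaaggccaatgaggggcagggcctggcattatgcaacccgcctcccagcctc
Per3: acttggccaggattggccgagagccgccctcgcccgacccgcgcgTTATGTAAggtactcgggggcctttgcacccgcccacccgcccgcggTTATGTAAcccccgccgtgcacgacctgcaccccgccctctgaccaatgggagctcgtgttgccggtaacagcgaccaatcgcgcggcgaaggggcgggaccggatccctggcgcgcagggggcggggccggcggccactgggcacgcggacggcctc
Tef: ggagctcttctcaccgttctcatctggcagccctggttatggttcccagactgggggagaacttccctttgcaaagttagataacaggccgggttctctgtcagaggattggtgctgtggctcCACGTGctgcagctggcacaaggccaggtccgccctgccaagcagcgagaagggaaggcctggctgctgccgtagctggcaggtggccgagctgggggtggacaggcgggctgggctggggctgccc
Per1 and Tef hold 1 E-box each in these windows and Per3 holds 2 D-boxes. Windows with a match are the ones shown. Another listed start of Per1 (chr11:69099902-69100151) had neither element before it, and the windows of Bmal1 held neither. Of 20 clock genes 17 had at least 1 start listed (22 starts). E-boxes stood before 5 of them (Per1, Tef, Cry1, Ciart and Bhlhe41) and D-boxes before 1 (Per3). Over all 32851 windows of this length, 6.02% held the E-box and 0.819% the D-box. These matches are letters in a window and were not tested for use in these livers.

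Few of the genes that handle caffeine lay apart. Cyp1a2, the main enzyme of caffeine breakdown, was at 145, 199, 158, 220 and 344 FPKM in the caffeine mice and 134, 197, 198 and 146 in the sorafenib mice (log2 0.29, SE 0.26, 95% interval -0.30 to 0.87). The ranges overlapped and caffeine 5 was the highest of all. Nat2, an arylamine acetyltransferase that acts on caffeine metabolites, was at 14.4, 20.6, 16.9, 17.9 and 23.3 against 11.7, 15.4, 9.82 and 13.3 FPKM (log2 0.53, SE 0.17, interval 0.15 to 0.92). Only sorafenib 2 reached into the caffeine range. Xdh, which oxidises xanthines, had a log2 fold change of -0.07 (interval -0.43 to 0.28), and Tiparp, a target of the aryl hydrocarbon receptor, -0.43 (interval -0.86 to -0.009). Cyp1a1, the classical target of that receptor, stayed below the filter at 0.4 to 0.747 FPKM with caffeine and 0.606 to 1.51 with sorafenib. Of 11 tested genes of caffeine breakdown and that receptor, 1 was higher and 1 lower at an unadjusted p under 0.05, and the median was 0.29. It was 0.10 without caffeine 5, and so also under the replicate block, and 0.04 among libraries numbered 3 and 4.

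Among the direct targets of caffeine the arms overlapped. Adora1, the adenosine A1 receptor, was at 6.84, 6.29, 9.31, 11.6 and 17.3 FPKM in the caffeine mice and 9.41, 7.07, 8.18 and 7.09 in the sorafenib mice (log2 0.26, interval -0.31 to 0.83). Adora2a (0.332 to 0.746 against 0.0762 to 0.930 FPKM) and Adora2b (at most 0.183 FPKM) were below the filter. Of 9 tested adenosine genes and 8 tested phosphodiesterases, none reached an unadjusted p under 0.05 (1 phosphodiesterase under the replicate block), with medians of 0.05 and 0.03. Pde4b, which degrades cyclic AMP, had -0.25 (interval -0.63 to 0.13). Ppargc1a, a coactivator switched on by cyclic AMP in fasting, was at 2.42, 1.42, 0.812, 1.07 and 1.27 against 3.61, 3.13, 3.56 and 1.81 FPKM. Its log2 fold change was -0.75 (SE 0.21, interval -1.23 to -0.28), and sorafenib 4 lay below caffeine 1. It was the only 1 of 13 cyclic AMP and fasting genes at that unadjusted level (3 without caffeine 1; list median -0.26, -0.51 without sorafenib 4 and -0.10 without sorafenib 3).

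Of the kinases that sorafenib blocks, 1 lay apart at the unadjusted level. Kdr, the main VEGF receptor of endothelium, was at 3.10, 3.14, 2.63, 2.14 and 1.99 FPKM with caffeine and 0.564, 2.31, 2.10 and 1.33 with sorafenib (log2 0.53, SE 0.22, interval 0.03 to 1.02). It was the only 1 of 12 tested target and ligand genes at that level, and sorafenib 1 was lowest. No gene of the list was higher at that level without caffeine 1, without sorafenib 1 and 4 together, or by edgeR. Without sorafenib 3 there were 2. Flt4 (log2 0.21, interval -0.10 to 0.53), Pdgfrb (0.09, interval -0.30 to 0.48) and Braf (-0.05, interval -0.36 to 0.26) were within the spread between mice. Flt1 and Kit stayed below the filter at no more than 0.722 and 0.634 FPKM in any mouse. The list median was -0.01, and 0.11 without caffeine 5, and so also under the replicate block.

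Output genes of the MAP kinase path gave no member apart at the unadjusted level. Dusp6, a phosphatase induced by ERK, was at 6.63, 10.5, 6.78, 6.87 and 6.11 FPKM with caffeine and 4.83, 12.7, 8.74 and 3.40 with sorafenib (log2 0.11, interval -0.57 to 0.79). Spry4 had -0.14 (interval -0.56 to 0.28) and Egr1 -0.29 (interval -1.47 to 0.89). Epha2 was at 2.12 FPKM in caffeine 1 and at 6.22 to 7.61 in the other 4 caffeine mice, against 2.51 to 4.12 with sorafenib (log2 0.58, interval -0.06 to 1.22). The median over the 11 tested output genes was 0.06, but 0.37 among libraries numbered 3 and 4, -0.11 among the others and -0.06 without sorafenib 4, so no direction can be read from it.

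Of the drug-metabolising genes on the sorafenib side, Cyp3a11 and Ugt1a9 varied widely between mice of an arm, and Por and Cyp3a13 had lower values with caffeine. Cyp3a11, a target of the receptor PXR, was at 488, 1453, 701, 447 and 2094 FPKM with caffeine and 669, 1252, 2001 and 170 with sorafenib (log2 0.23, interval -1.36 to 1.83). Ugt1a9, a glucuronidating enzyme, was at 0.325 to 5.25 against 0.0386 to 8.50 FPKM (log2 -0.01). Por, which passes electrons to all microsomal P450 enzymes, was at 63.7, 30.5, 25.0, 26.3 and 98.9 against 126, 184, 91.9 and 54.9 FPKM. Caffeine 5 and sorafenib 4 overlapped there (log2 -1.30, SE 0.47, interval -2.34 to -0.25), and it was the only 1 of 23 tested CAR and PXR targets at that level (none without sorafenib 1; under the replicate block 3, Por among them). Cyp3a13 had -0.88 (interval -1.76 to -0.01) and was the only 1 of 16 genes of sorafenib breakdown and transport at that level. No gene of that list was lower at that level without caffeine 3 or by edgeR, and 2 were without sorafenib 4 and under the replicate block. Ugt2b35 and Ugt2b38 were 0.51 and 0.65 log2 units higher with caffeine (intervals 0.02 to 1.01 and 0.06 to 1.24) among 21 conjugating enzymes, and neither stayed at that level without caffeine 2.

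**Figure D3:**
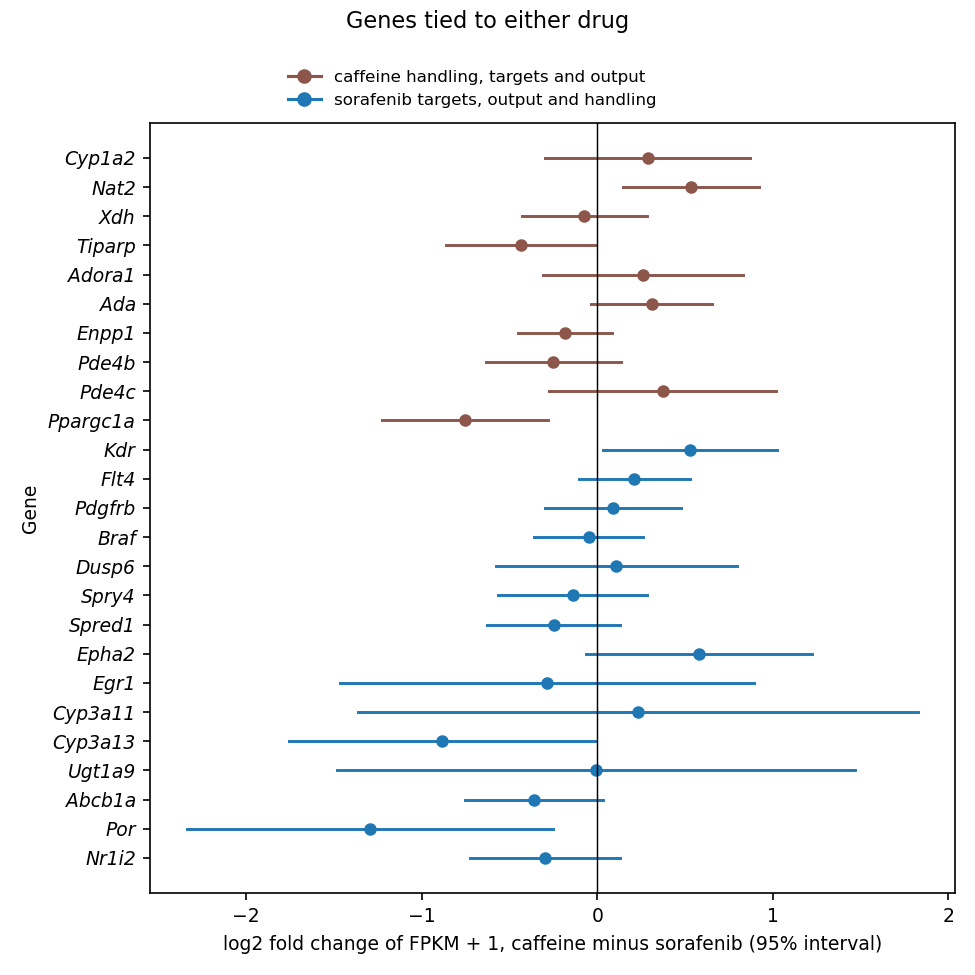
log2 fold change of FPKM + 1 (caffeine minus sorafenib) with its 95% interval for 25 tested genes tied to caffeine (brown) or to sorafenib (blue). Most intervals cross 0; those of Nat2, Tiparp, Ppargc1a, Kdr, Cyp3a13 and Por do not, and none of these genes was called after adjustment over all genes tested.

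Several genes of fat metabolism had lower values with caffeine, while most members of their list had higher values and its median was near 0. Thrsp, an activator of fat synthesis, was at 26.4, 23.9, 17.9, 14.0 and 28.2 FPKM with caffeine and 76.8, 53, 43.1 and 25.4 with sorafenib (log2 -1.07, SE 0.31, interval -1.76 to -0.38). Acacb, the acetyl-CoA carboxylase that restrains fat oxidation, was at 3.52, 2.52, 1.96, 1.61 and 2.26 against 4.15, 4.74, 3.22 and 4.39 FPKM (log2 -0.62, SE 0.17, interval -1 to -0.24). In both genes 1 sorafenib mouse reached into the caffeine range. Pnpla2, the triglyceride lipase, was at 25.6, 21.0, 19.7, 19.9 and 30.6 against 50.6, 44.1, 30.3 and 30.6 FPKM (log2 -0.70, interval -1.15 to -0.25). Lpin1, a phosphatidate phosphatase and coactivator, was at 24.0 FPKM in caffeine 1 and 1.87 to 4.55 in the other caffeine mice, against 11.3 to 26.7 with sorafenib (log2 -1.70, interval -2.94 to -0.46). Agpat2 was at 71.2 to 82.9 against 62.2 to 65.2 FPKM, without overlap (log2 0.27, SE 0.12). The core enzyme Fasn had 0.08 (interval -0.37 to 0.54), Scd1 0.39 (interval -0.64 to 1.42) and the regulator Srebf1 0.52 (interval -0.07 to 1.11). Of 24 tested genes on the fat synthesis list, which also holds the lipase Pnpla2, 16 had higher values with caffeine and 8 lower (median 0.09). At an unadjusted p under 0.05 4 were lower and 1 higher, against 2.01% and 2.14% of all genes tested. Agpat2 was the 1 member wholly higher with caffeine, against 0.792% of all genes tested.

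Fgfr4, the hepatocyte receptor for the bile acid signal FGF15, was at 23.2, 24.3, 28.1, 33.0 and 22.5 against 16.1, 14.2, 14.9 and 22.8 FPKM (log2 0.60, SE 0.17, interval 0.21 to 0.99). With Hsd3b7 it made 2 of 19 tested bile acid genes higher at an unadjusted p under 0.05. For this count and those that follow, 2.14% of all genes tested were higher and 2.01% lower at that level. Cyp7a1, the rate-limiting enzyme, was at 4.77 to 33.7 against 6.25 to 58.8 FPKM (log2 -0.19, interval -1.64 to 1.26). Of the periportal genes, Sds, a serine dehydratase induced in fasting, was at 318, 143, 61.6, 59.1 and 104 against 411, 391, 387 and 162 FPKM (log2 -1.5, SE 0.50, interval -2.60 to -0.39). Asl, a urea cycle enzyme, was at 209, 108, 82.3, 90.6 and 91.4 against 389, 292, 240 and 116 FPKM (log2 -1.11, SE 0.37, interval -1.95 to -0.28). In both, caffeine 1 was the highest of its arm and sorafenib 4 the lowest of its own. Of 20 tested periportal genes 13 had lower values with caffeine (median -0.24, -0.07 without sorafenib 2), 2 of them at an unadjusted p under 0.05 (4 without caffeine 1), and of 17 tested pericentral genes Tbx3 was higher and Cyp2a5 lower at an unadjusted p under 0.05. Of 18 tested genes of glycolysis and hypoxia Pfkfb3 (-0.55), Aldoa (-0.42) and Gapdh were lower at that level, with a median of -0.18 (-0.03 without sorafenib 1). None of 25 genes of cholesterol synthesis or 28 of fat oxidation reached that level (medians 0.03 and 0.02), but 1 and 4 were lower under the replicate block.

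Sex-biased liver genes, which the growth hormone pattern sets, gave the widest list medians. Of 22 tested female-biased genes 19 had lower values with caffeine, 7 at an unadjusted p under 0.05, with a median of -0.93. Of 24 tested male-biased genes all 24 had higher values, 1 of them (Hsd3b5) at that level, with a median of 0.76. Over all genes tested 51.4% had higher values, and 2.14% were higher and 2.01% lower at that level. List members were measured in the same mice, so their signs are not independent. Cyp2c69, a P450 on the female list, was at 1.42, 0.264, 0.0326, 0.128 and 0.461 FPKM with caffeine and 6.5, 0.671, 5.30 and 3.86 with sorafenib (log2 -1.67, SE 0.42, interval -2.61 to -0.73). Fmo2, a flavin monooxygenase on the same list, was at 5.33, 2.83, 1.80, 1.77 and 1.07 against 6.63, 7.04, 6.57 and 4.20 FPKM (log2 -1.09, SE 0.30, interval -1.75 to -0.43). In both genes caffeine 1 was the highest of its arm. Hsd3b5, a steroid reductase of male liver, was at 0.992, 11.2, 6.55, 21.8 and 1.08 against 0.271, 4.02, 0.0985 and 0.600 FPKM (log2 1.75, SE 0.76, interval 0.05 to 3.44).

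Mice of the same arm differed widely on these lists. The median of the female-biased list, taken over its members as the difference from the 9-mouse mean, was 1.4 in sorafenib 1 and 0.83 in caffeine 1, and -0.92 to -0.39 in caffeine 2 to 5 and sorafenib 2. The male-biased list ran the other way, at -1.97 in sorafenib 1 and -0.66 in caffeine 1 against 1.32 in sorafenib 2, 1.28 in caffeine 2 and 1.15 in caffeine 4. Leaving out sorafenib 1 gave -0.60 and 0.16 for the female and male lists, leaving out sorafenib 2 gave 1.48 for the male list, and without sorafenib 1 and 4 together the medians were -0.20 and -0.19, the male list then on the other side of 0. At an unadjusted p under 0.05 the female list held 3 lower genes without sorafenib 1, 11 without caffeine 1 and 13 under the replicate block. The male list held 8 higher genes under the block.

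**Figure D4:**
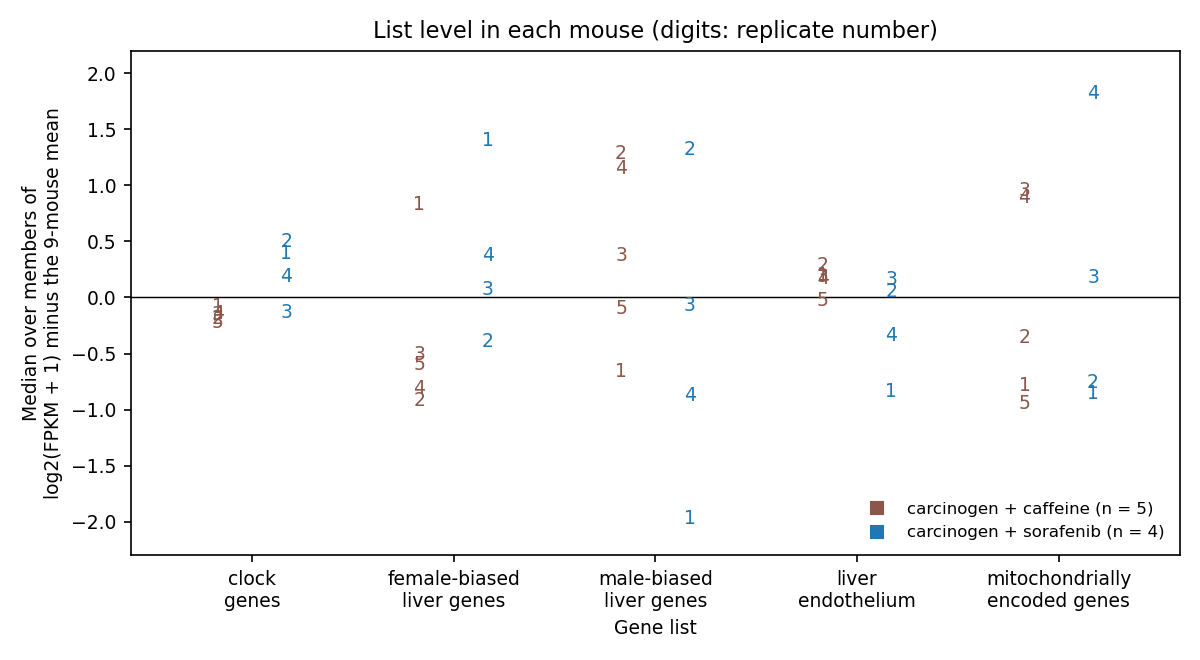
Median over the tested members of 5 gene lists of log2(FPKM + 1) minus the gene's 9-mouse mean, with each mouse drawn as its replicate number (brown, caffeine, n = 5; blue, sorafenib, n = 4). Sorafenib 1 lies at the end of the female-biased (1.4), male-biased (-1.97) and endothelial (-0.84) lists, and sorafenib 4 and caffeine 3 and 4 are high in mitochondrially encoded genes (1.82, 0.95 and 0.89).

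Endothelial genes had higher values with caffeine, most clearly against sorafenib 1 and 4. All 16 tested of 22 listed genes of liver endothelium were positive, against 51.4% of all genes tested, with a median of 0.40. As in the other lists, these genes were measured in the same mice, so their signs are not independent. At an unadjusted p under 0.05 there were 5, Pecam1, Tie1, Tek, Kdr and Cdh5, against 2.14% of all genes tested. Pecam1, an adhesion molecule of all endothelium, was at 1.63, 2.00, 1.55, 2.00 and 1.96 FPKM with caffeine and 0.862, 1.25, 1.62 and 0.800 with sorafenib (log2 0.42, SE 0.14, interval 0.10 to 0.73). Clec4g, a lectin of sinusoidal endothelium, was at 20.4, 17.6, 12, 12.4 and 10.7 against 2.41, 15.8, 13.8 and 7.68 FPKM (log2 0.71, interval -0.24 to 1.66). Sorafenib 1 and 4 were the low mice, and sorafenib 2 and 3 lay within or near the caffeine range. The list median was 0.18 without sorafenib 1 and 0.08 without sorafenib 1 and 4, and then none of the 5 genes stayed at that unadjusted level. Without caffeine 2 only 1 did. In whole liver, fewer cells of a type and less RNA per cell cannot be told apart. The summed level of the endothelial list ranged from 58.7 to 76.8 FPKM with caffeine and from 22.7 to 72.9 with sorafenib.

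Antibody genes had lower values with caffeine. Igkc, the light chain made by plasma cells, was at 8.57, 10.4, 24.1, 16.8 and 31.4 FPKM with caffeine and 282, 40.2, 35.2 and 39.7 with sorafenib (log2 -1.89, SE 0.62, interval -3.27 to -0.51). Jchain, which links antibody chains, was at 1.4, 1.12, 2.13, 1.72 and 2.61 against 14.1, 2.99, 3.38 and 3.59 FPKM (log2 -1.10, SE 0.37, interval -1.92 to -0.28). The arms did not overlap in either gene even apart from the high value of sorafenib 1. Of 15 listed genes of B and plasma cells 6 were tested, with a median of -0.65. Igkc and Jchain were the 2 of them lower at an unadjusted p under 0.05 and without overlap. The shares over all genes tested were 2.01% and 0.618%. The B cell marker Cd79a, below the filter, ran the other way in its medians (0.442 FPKM with caffeine, 0.249 with sorafenib). It ranged from 0.0774 to 1.12 FPKM with caffeine and from 0.116 to 0.481 with sorafenib. The 11 tested Kupffer cell genes had a median of -0.24 (-0.07 without caffeine 1, -0.40 without caffeine 5). None was at that level, against 2 lower without caffeine 5 and 3 under the replicate block, and Clec4f, their defining lectin, overlapped between arms (16.4 to 44.4 against 23.5 to 48.0 FPKM). MHC class II genes (5 members, median -0.40), interferon-induced genes (29, -0.21) and T and NK cell genes (4, -0.08) had no member at that level. Under the replicate block 3, 4 and 1 of them were lower, and without sorafenib 4 the MHC class II list held 3 with a median of -0.78. Ccl24, an eosinophil chemokine, was at 0.422 to 1.30 against 1.05 to 2.45 FPKM (log2 -0.59, interval -1.02 to -0.17), the only 1 of 10 tested cytokine genes (4 lower under the replicate block). Red cell RNA differed between mice more than between arms, with Hbb-bs at 103 to 249 against 51.2 to 898 FPKM.

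No tumour marker was called, and Afp and Gpc3 were low in both arms. Afp, the fetal albumin relative, was at 0.359 to 0.877 FPKM with caffeine and 2.58, 0.810, 1.12 and 3.81 with sorafenib, below the filter. Gpc3, also below the filter, was at no more than 0.518 FPKM with caffeine and 0.913 with sorafenib. Its reads did not overlap between arms, at 13 to 25 with caffeine and 26 to 45 with sorafenib. H19, an imprinted growth RNA, was at 12.7, 38.0, 27.5, 16.2 and 13.1 against 23.7, 23.0, 40.0 and 62.1 FPKM (log2 -0.78, interval -1.64 to 0.09). Bex1 was at 0.961, 2.57, 0.940, 2.08 and 0.354 against 5.47, 2.62, 3.00 and 3.77 FPKM, without overlap (log2 -1.04, SE 0.29, interval -1.68 to -0.39). Prom1, the surface protein CD133, was at 0.320 to 1.30 against 6.27, 1.23, 2.05 and 1.88 FPKM (log2 -1.02, interval -1.75 to -0.29). With Golm1 (-0.47) these made 3 of 17 tested oncofetal genes lower at an unadjusted p under 0.05, against 2.01% of all genes tested. The list median was -0.40. Without sorafenib 4 there were 6 such genes with a median of -0.62, and under the replicate block there were 6. Mki67, the marker of cycling cells, was below the filter in most mice (0.118 to 2.19 against 0.647 to 0.831 FPKM).

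Few damage and stress genes lay apart. Cdkn1a, the cell-cycle inhibitor under p53, was at 14.9, 12.2, 14.0, 11.2 and 9.99 FPKM with caffeine and 13.1, 6.04, 23.8 and 3.47 with sorafenib (log2 0.38, interval -0.56 to 1.32). Mdm2, which degrades p53, was 0.44 log2 units higher with caffeine (interval 0.04 to 0.83), the only 1 of 16 tested p53 targets (3 under the replicate block, none without caffeine 3). Gclc, the glutathione synthesis enzyme under NRF2, was at 55.3, 65.6, 81.4, 69.5 and 48.3 against 19.9, 34.8, 60.6 and 25.2 FPKM (log2 0.95, SE 0.30, interval 0.29 to 1.61). Only sorafenib 3 reached the caffeine range, and it was the only 1 of 24 tested NRF2 targets (median 0.24; 0.03 without caffeine 5). Hspa8, a constitutive heat shock protein, was at 95.6, 78.3, 56.2, 76.0 and 72.1 against 114, 192, 219 and 78.3 FPKM (log2 -0.89, interval -1.56 to -0.23), with a median of -0.11 over 13 heat shock genes, -0.40 without sorafenib 1 and -0.51 without sorafenib 1 and 4. Slc7a11, the cystine carrier that guards against ferroptosis, was at no more than 0.358 FPKM. It had 7 to 24 reads in the caffeine mice and 64, 19, 98 and 32 in sorafenib mice 1 to 4. Atf5, a stress-induced transcription factor, was at 306, 355, 274, 363 and 320 against 276, 207, 260 and 207 FPKM (log2 0.45, SE 0.17, interval 0.08 to 0.82), the only 1 of 22 genes of the integrated stress and unfolded protein responses. In that gene caffeine 3 and sorafenib 1 overlapped. Stat5a, a growth hormone signal transducer, was at 1.30, 1.55, 2.52, 2.55 and 3.51 against 1.65, 1.00, 1.08 and 1.23 FPKM (log2 0.52, interval 0.07 to 0.97), and with Foxo3 it made 2 of 23 tested genes of the insulin, IGF and growth hormone axis. Mterf2, a regulator of mitochondrial transcription, was at 2.09 to 4.77 against 1.84 to 3.37 FPKM (log2 0.28, interval -0.16 to 0.73).

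Over all 52 gene lists, 736 of 947 listed genes were tested, 0 were called and 57 (7.74%) were at an unadjusted p under 0.05, against 4.15% of all genes tested. Lists were chosen with earlier results in view, so that share is a description of these lists. Hepatocyte identity genes (25 tested, median 0.06), nuclear respiratory chain genes (30, 0.05), coagulation and complement genes (27, -0.01) and ribosomal protein genes (30, -0.07) lay close to 0. Of 13 mitochondrially encoded genes 12 had lower values with caffeine (median -0.14), but the median was 0.48 without sorafenib 4 and -0.46 without sorafenib 1. Immediate early genes had a median of -0.29 over 15 members, -0.04 among libraries numbered 3 and 4 and -0.69 without sorafenib 1 and 4.

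**Figure D5:**
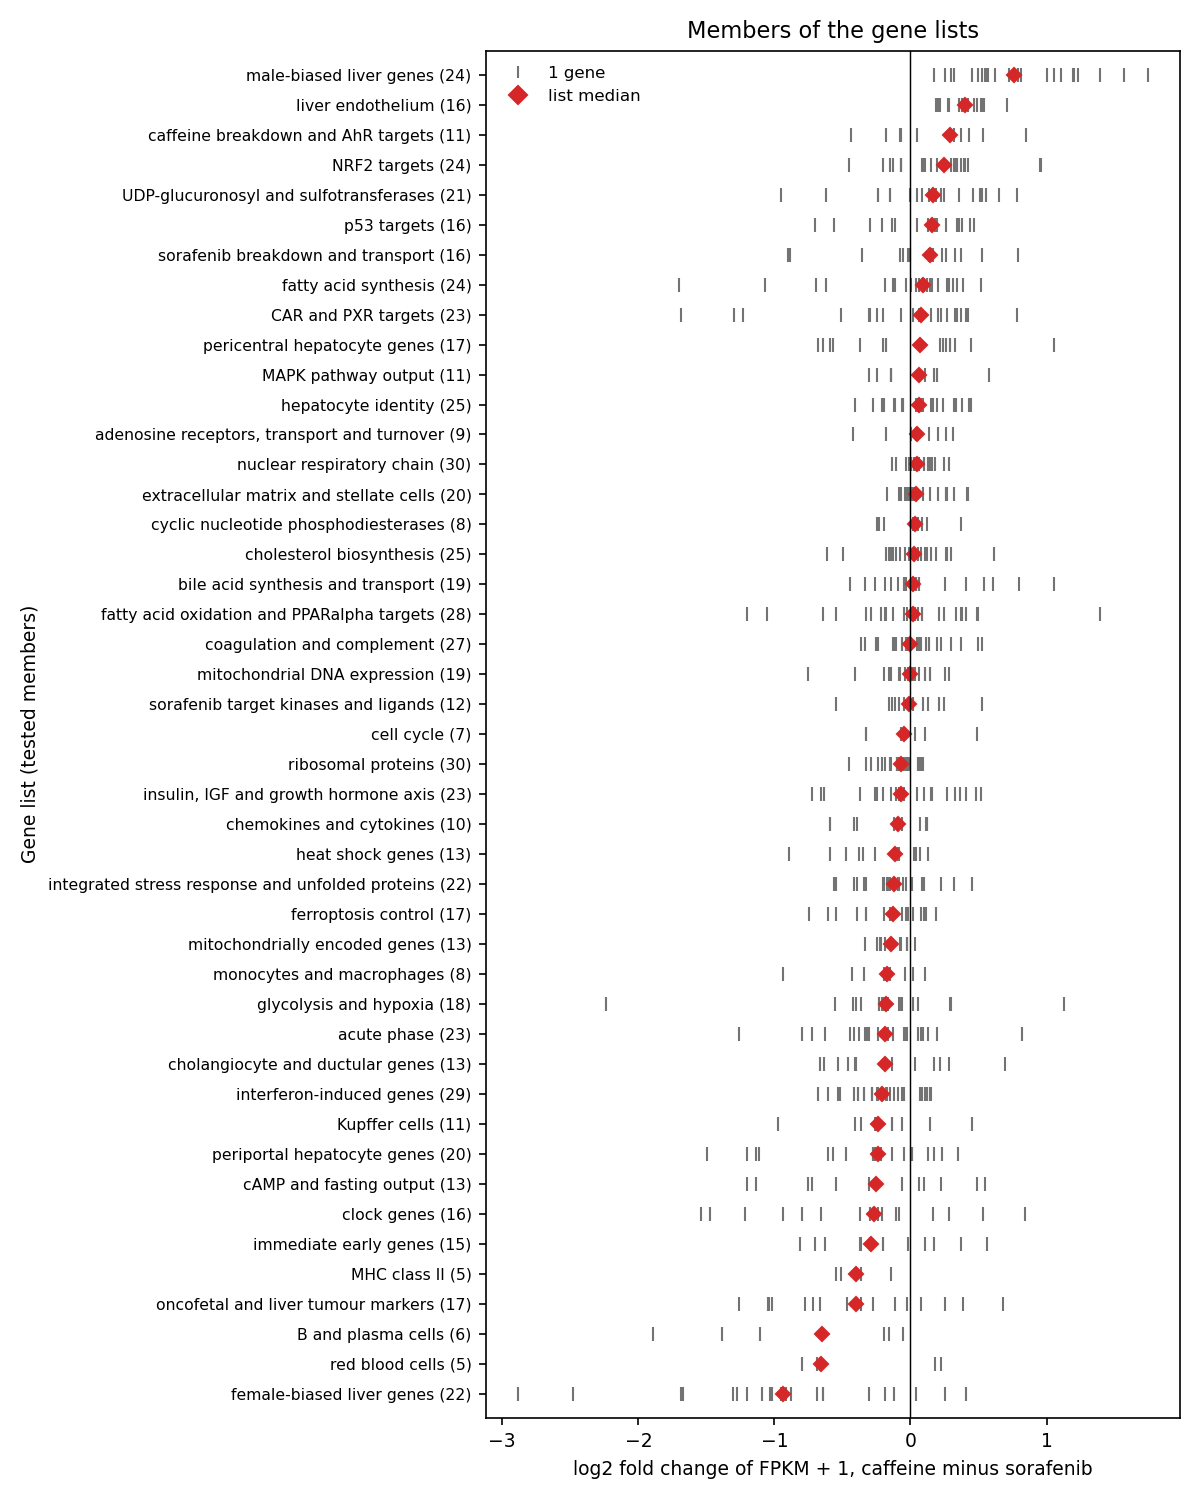
log2 fold change of FPKM + 1 (caffeine minus sorafenib) of each tested member (ticks) and the list median (red diamonds) for lists with 5 or more tested members, in order of the median. Medians ran from -0.93 for female-biased genes to 0.76 for male-biased genes, most others lay within 0.3 of 0, and no single gene was called.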

How the data were processed

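RNA from whole liver was sequenced. Per the submitters' processing notes, reads were aligned to GRCm39 with HISAT2 2.0.5 and counted with featureCounts 1.5.0-p3; annotation release and strand setting: not given in the sources used here. The deposited tables are named FPKM, but every value was a whole read count divided by 1 factor per library, so the deposited values are a scaled signal and not per length, and 100% came back whole within 0.01. The planned FPKM test was kept on FPKM recomputed from those reads with the tables' gene lengths and median-of-ratios sizes over the 9 libraries. Genes in both tables (26841 of 28323 and 27875) with FPKM of 1 or more in 4 libraries were tested on log2(FPKM + 1) with limma 3.58.1 (R 4.3.3, trended, two-sided, Benjamini-Hochberg over all genes tested). The code was tested on simulated data. edgeR 4.0.16 and DESeq2 1.42.0 on the recovered reads, other scalings, filters and samples were alternatives. Replicate libraries differed by more than sampling noise (chi-square per degree of freedom 19.82 to 338.9 in 16 pairs). Deviations of same-numbered mice correlated at 0.21, 0.46, 0.15 and 0.48 in numbers 1 to 4, so numbers were treated as pairs in a blocked fit. That fit left out caffeine 5, which has no sorafenib mouse of its number. Some other pairs correlated as much (caffeine 3 with sorafenib 4 at 0.54, caffeine 5 with sorafenib 2 at 0.37). The labels do not state the pairing, nor that the mice of a group were otherwise independent, so p-values measure only the spread between these samples.

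Genes were named by rule: the 8 protein-coding genes per direction with non-overlapping arms and the smallest p, the 2 smallest p of each list, and a set of drug, clock and tumour genes. Per3, Tef, Lpin1, Agpat2, Golm1, Tek, Cdh5 and the genes called by DESeq2 alone were added after their values were seen, and Alb, Cyp7a1, Clec4f and Clec4g as reference genes. The comparison, members and lists were chosen with earlier results of these data known. Without strand, overlapping antisense genes cannot be separated. Promoter sequences are from RefSeq. Some genes that the rule names are not reported here.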

Additional observations from a re-analysis of the deposited data

Results flagged for a closer look

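In 27 of 290 groups of named genes (9.31%) 1 mouse lay far from the others of its arm by Dixon's test. That test flags about 1 in 20 groups where values are normally distributed. FPKM entered it without logs, where this need not hold, so no excess can be read from the share. Values are FPKM, with the nearest other mouse of the arm in brackets. Among caffeine mice, caffeine 1 was high for the clock gene Per1 at 4.78 (1.22) and the urea cycle gene Asl at 209 (108), and low for Epha2 at 2.12 (6.22). Caffeine 2 was high for Hsd3b7 at 7.36 (5.24), the complement gene C8b at 120.0 (73.8), Ugt2b38 at 2.51 (1.02) and Dusp6 at 10.5 (6.87). Caffeine 3 was high for Gpc3 at 0.518 (0.332) and caffeine 4 for Ier3 at 3.73 (2.42). Caffeine 5 was high for the sterol enzyme Sc5d at 63.4 (33.6), Txnrd1 at 27.8 (19.1), Birc5 at 1.96 (0.803), the macrophage gene C1qa at 59.1 (31.0) and the MHC gene H2-Aa at 10.6 (5.55).

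Among sorafenib mice, sorafenib 1 was high for the antibody genes Igkc at 282 (40.2) and Jchain at 14.1 (3.59), the macrophage receptor Marco at 27.2 (2.98) and Prom1 at 6.27 (2.05), and low for Scd1 at 114 (270.0). Sorafenib 2 was high for Hsd3b5 at 4.02 (0.600) and low for Rps18 at 5.37 (7.85). Sorafenib 3 was high for Sesn2 at 5.78 (3.24) and the mesothelial gene Msln at 4.80 (1.51). Sorafenib 4 was high for Trib3 at 28.3 (14.1) and low for Sds at 162 (387), Fmo2 at 4.20 (6.57) and C1qa at 28.4 (43.0). Caffeine 5 and sorafenib 1 held 5 of the 27 values each.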

How the results depend on the processing

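Calls at an adjusted p under 0.05 were 0 in every alternative (26 in all, the replicate block included) except DESeq2 (9) and libraries numbered 3 and 4 alone (1, Gapdh). Genes higher at an unadjusted p under 0.05 numbered 495 with no filter, 117 with an FPKM 5 filter, 504 with the replicate block, 461 among libraries 3 and 4, 483 with those numbers as a term and 453 with the mitochondrial share as a covariate, and 171 (without caffeine 2) to 336 (without sorafenib 2 or 4) leaving out 1 mouse. Lower genes numbered 153 with library totals, 500 with no filter, 105 with FPKM 5, 387 with the block, 422 with the term, 391 with the covariate and 170 (without sorafenib 1) to 328 (without sorafenib 2) leaving out 1 mouse. The cause was not tested beyond the number of genes tested (25713 and 5597 for the filters). The block, which also leaves out caffeine 5, changed no call at an adjusted p under 0.05. It moved the unadjusted counts of 31 of 51 lists.

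List medians leaving out 1 mouse ran from 0.102 to 0.37 (caffeine breakdown), -0.0342 to 0.105 (sorafenib targets), -0.061 to 0.123 (MAPK), -0.0594 to 0.203 (bile acids), -0.62 to -0.24 (oncofetal), -0.404 to -0.0726 (heat shock) and -0.0299 to 0.120 (mitochondrial DNA expression). The block gave 0.102 for caffeine breakdown and 0.105 for sorafenib targets, the same as leaving out caffeine 5. Libraries 3 and 4 alone gave 0.0406 and 0.083 for the same lists, 0.365 (MAPK), -0.195 (CAR and PXR), -0.0686 (clock), -0.40 (chemokines) and 0.13 (insulin axis); the other libraries alone gave -0.11 (MAPK), -0.60 (clock), -0.34 (pericentral), -0.00229 (p53) and 0.27 (neutrophils). FPKM 5 gave -0.18 (pericentral) and -0.69 (oncofetal) and left no T and NK cell gene. B and plasma cell genes were at -1.87 by edgeR and -1.86 by DESeq2. Leaving out sorafenib 1 and 4 together, chosen after seeing the data, gave 0.0804 (caffeine breakdown), -0.69 (immediate early), -0.18 (sorafenib breakdown), -0.20 (female-biased), 0.0154 (p53), -0.51 (heat shock), 0.0824 (endothelium), -0.26 (matrix) and -0.18 (conjugating enzymes). Of 135 named genes 105 kept their sign in all settings that tested them, all 54 at an unadjusted p under 0.05 among them. The settings refit the same mice, where genes with a small p can hardly change sign, so this is not independent support. The rest of the 135, none of them called by limma, changed sign in at least 1 setting. In 7 of 3406 values a gene passed the adjusted threshold (6 by DESeq2). Depth and 9 libraries gave a median 95% interval of 0.413 to either side.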
